A study of Caenorhabditis elegans with 2 samples.

Results

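Heat shock and chaperone genes were examined for HIM-1-GFP binding in young adult worms. The members were the protein-coding genes of Caenorhabditis elegans whose Ensembl WBcel235 name is hsp-, dnj- or cct- followed by a number. This rule found 59 genes of 19973 on chromosomes I to V and X, comprising 22 hsp, 29 dnj and 8 cct genes. HIM-1 is the worm SMC-1 subunit of cohesin, the ring complex that holds sister chromatids together and shapes chromatin loops. Chromatin immunoprecipitation sequencing (ChIP-seq) was performed on whole young adult hermaphrodites of strain YL577, in which an insertion at him-1 adds a C-terminal GFP-FLAG tag. The worms were harvested 47 hours after synchronization as starved L1 larvae, and the labels' description names a GFP antibody for the precipitation, while their antibody field reads him-1. There was 1 group with 2 biological replicates, no heat treatment is named in the labels, and no control sample was analysed here. Separate cultures are not stated, so the spread between replicates may be technical. Whole worms mix the germ line with every somatic tissue, so a summit cannot be assigned to a cell type.

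Chaperones keep other proteins folded. Small heat shock proteins hold unfolding proteins, HSP70 chaperones bind and release them using ATP with J-domain proteins (dnj genes) as partners, HSP90 acts late in the maturation of kinases and receptors, and the cytosolic chaperonin CCT, a double ring of related subunits, folds actin and tubulin. Many of these genes are transcribed at all times, whereas others, such as the hsp-16 genes, are nearly silent until heat activates the transcription factor HSF-1. HSF-1 binds heat shock elements, which are alternating repeats of the triplet GAA and its complement TTC.

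Each deposited list gives peaks with a summit, the base of highest enrichment, and a signal, a score set by the authors' peak caller that ranks peaks within that list. The optimal list held 2051 peaks after the authors' thresholding by irreproducible discovery rate (IDR), a measure of repeatable rank between replicates. Its signals ran from 60.8 to 497, with a median of 83.3. A place in it does not show that a peak ranked high in both replicates. The cct-2 summit, for example, ranked 1336 in replicate 1's own list and 5014 in replicate 2's. The relaxed lists, which also hold background, had 18314 entries for the pooled replicates, 22720 for replicate 1 and 24220 for replicate 2. The optimal peaks are in the pooled list with the same signals, so these lists share a scale, and the replicates' lists each have their own. Read depth is unknown, and the 95% Clopper-Pearson intervals below cover counting error over genes only. A summit was placed at a gene's 5′ end or 3′ end where it lay within 500 bp of that end, and otherwise in the body, and it counted for every gene it reached. Coordinates are 1-based on ce11.

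Sequences are shown for 5 member summits, chosen after their values were seen: the strongest of the dnj and hsp genes, the strongest 5′ summit, and 2 cct summits with a divergent neighbour, because the results below turn on what lies under them. Each is written 5′ to 3′ on the strand of the chaperone gene, with the 21 bases centred on the summit in capitals. The dnj-5 stretch (II:6853134-6853234, minus strand) runs into a tRNA gene, the hsp-90 stretch (V:14685711-14685811, plus strand) is intronic, and those of dnj-9 (II:4851801-4851901, plus strand), cct-8 (IV:1094321-1094421, minus strand) and cct-1 (II:8185152-8185252, plus strand) lie between genes.
dnj-5 3′ end: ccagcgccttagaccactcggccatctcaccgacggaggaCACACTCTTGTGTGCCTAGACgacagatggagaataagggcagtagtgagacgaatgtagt
hsp-90 body: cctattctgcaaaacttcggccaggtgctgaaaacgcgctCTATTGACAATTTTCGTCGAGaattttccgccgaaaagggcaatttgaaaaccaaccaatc
dnj-9 5′ end: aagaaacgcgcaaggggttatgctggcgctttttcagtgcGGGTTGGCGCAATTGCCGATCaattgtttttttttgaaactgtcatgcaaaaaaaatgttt
cct-8 5′ end: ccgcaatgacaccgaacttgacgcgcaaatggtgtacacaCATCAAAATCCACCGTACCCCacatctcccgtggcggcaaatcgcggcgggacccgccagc
cct-1 5′ end: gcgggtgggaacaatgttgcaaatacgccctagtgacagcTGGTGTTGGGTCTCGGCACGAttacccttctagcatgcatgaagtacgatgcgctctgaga

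HIM-1-GFP summits of the optimal list lay at 15 of the 59 chaperone genes (25.4%, interval 15 to 38.4%), against 11.5% of all protein-coding genes. At the 5′ end 7 members had a summit (11.9%, interval 4.91 to 22.9%), against 4.47% of all genes. This 5′ difference depended on the reach allowed: within 250 bp it was 2 members (3.39%) against 2.64% of all genes, and with each summit given only to the nearest 5′ end it was 3 members (5.08%) against 3.65%. At the 3′ end 9 members had a summit (15.3%, interval 7.22 to 27%), against 6.8% of all genes. In the body there was 1 member (1.69%), close to the 1.41% of all genes. The 15 genes were hsp-1, hsp-12.2, hsp-12.3, hsp-90, hsp-110, dnj-5, dnj-9, dnj-19, dnj-20, dnj-29, cct-1, cct-2, cct-5, cct-7 and cct-8, and together they had 19 summits. Their signals ran from 61.2 to 184 with a median of 88.1, and the highest, at dnj-5, ranked 109 of 2051.

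In the optimal list the cct summits lay mainly at the 5′ end and those of the other families mainly at the 3′ end. Of the cct genes, 5 of 8 had an optimal summit (62.5%, interval 24.5 to 91.5%), 4 of them at the 5′ end (50%, interval 15.7 to 84.3%). Of the hsp genes, 5 of 22 had one (22.7%, interval 7.82 to 45.4%), with 1 at the 5′ end, 4 at the 3′ end and 1 in the body. The hsp share at the 5′ end, 4.55%, was close to the 4.47% of all genes. Of the dnj genes, 5 of 29 had one (17.2%, interval 5.85 to 35.8%), with 2 at the 5′ end and 4 at the 3′ end. The intervals of the 3 families overlap, and the differences between them were not tested.

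**Figure D1:**
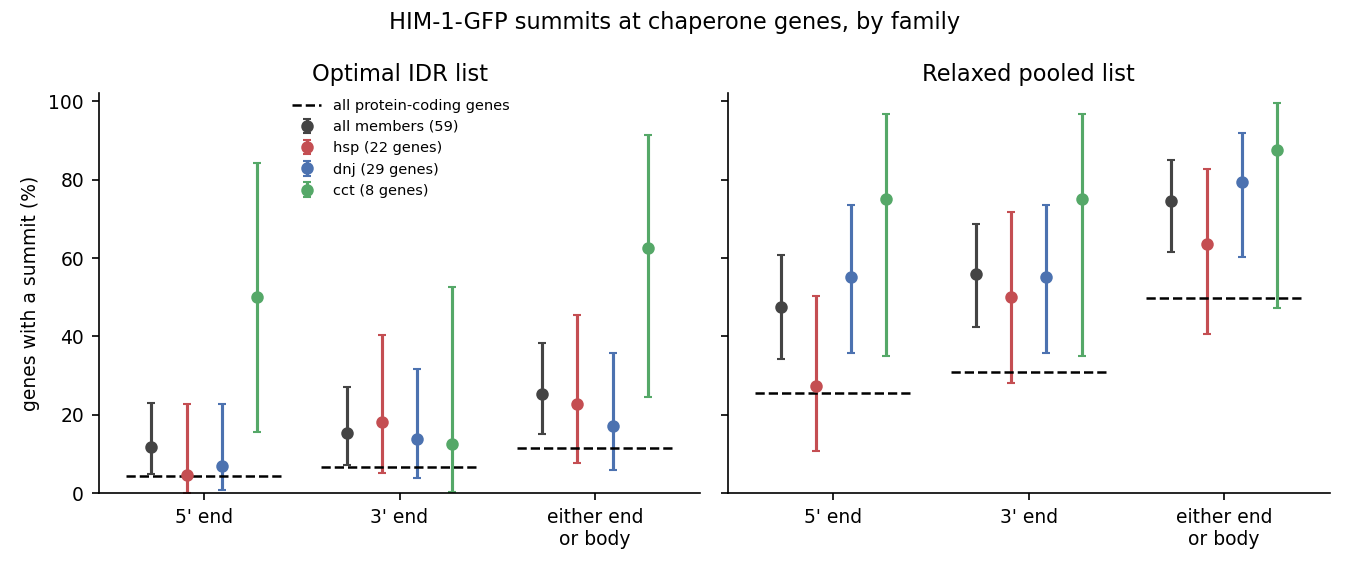
Share of genes with a HIM-1-GFP summit at each place (vertical axis, percent) in the optimal list and the relaxed pooled list. Points are the 59 members and the 3 families, bars are 95% Clopper-Pearson intervals, and dashed lines are all 19973 protein-coding genes; in the optimal list the cct point at the 5′ end (50%) stands above those of hsp and dnj.

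The relaxed pooled list, which includes the optimal peaks, gave the same order of families at the 5′ end. At the cct genes it added, cct-6 and cct-7, a divergent neighbour's start was nearer to the summit than the cct start. A 5′ summit was listed for 28 members (47.5%, interval 34.3 to 60.9%), against 25.5% of all genes, and these were 6 of 8 cct genes, 16 of 29 dnj genes and 6 of 22 hsp genes. The hsp share, 27.3%, was close to that of all genes. A 3′ summit was listed for 33 members (55.9%, interval 42.4 to 68.8%), against 31% of all genes. These were 6 of 8 cct genes, 16 of 29 dnj genes and 11 of 22 hsp genes. The cct and dnj genes were thus listed as often at the 3′ end as at the 5′ end. Any place gave 44 members (74.6%, interval 61.6 to 85%), against 49.8%. In replicate 1's own list 25 members had a 5′ summit (42.4%), against 28.1% of all genes, and in replicate 2's own list 32 did (54.2%), against 30.6%.

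**Figure D2:**
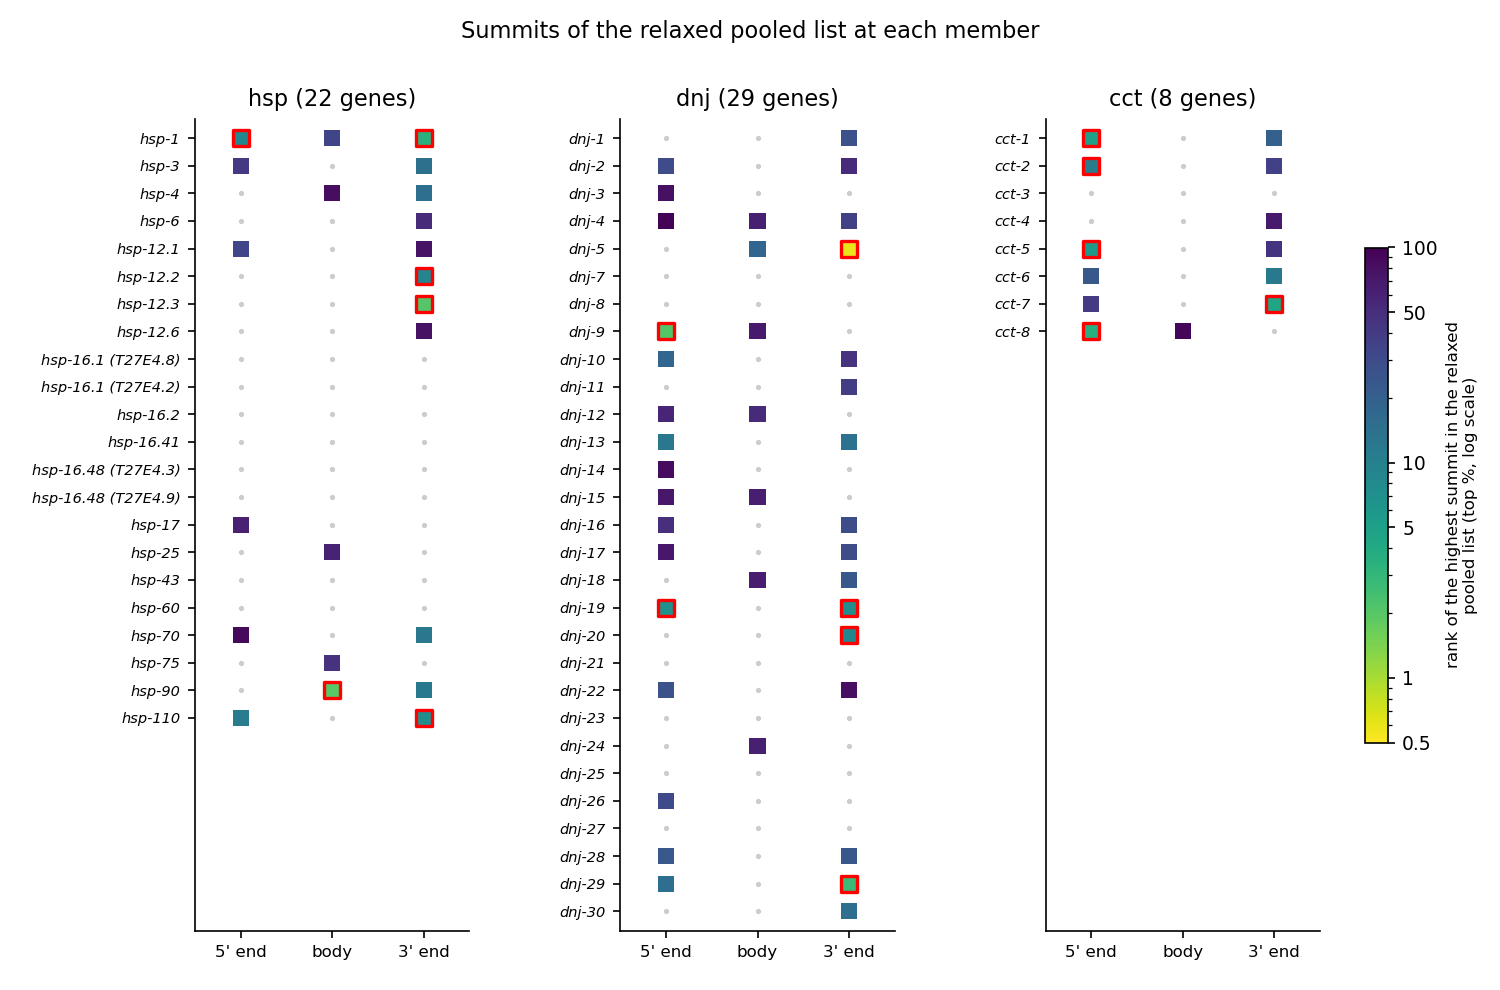
Highest summit of the relaxed pooled list at the 5′ end, body and 3′ end of each of the 59 members. The colour of a square gives its rank as a top percentage of the 18314 entries on a log scale, small grey dots mark places with no summit, and red frames mark places that also have a summit in the optimal list; the 6 hsp-16 genes are blank and all 6 HSP70 and HSP110 genes have a 3′ square.

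The replicates were compared over the 2051 peaks of highest signal in each one's own list. Replicate 1 then had 17 members with a summit and replicate 2 had 16, a mean of 28% ± 1.2 (SD, n = 2), against 11.3% ± 0.0319 for all genes. At the 5′ end both replicates had 7 members, but only dnj-9, cct-5 and cct-8 were among them in both. The others were hsp-1, dnj-13, dnj-29 and cct-2 in replicate 1, and hsp-110, dnj-19, dnj-28 and cct-1 in replicate 2. The hsp genes numbered 5 in replicate 1 and 6 in replicate 2, and the dnj genes 6 and 7. The cct genes numbered 6 in replicate 1 and 3 in replicate 2, 56.2% ± 26.5 (SD, n = 2), so the cct share is the least settled of the 3. Replicate 1 alone placed cct-1, cct-6 and cct-7 summits at the 3′ end among its strongest peaks, and replicate 2 placed no cct 3′ summit there.

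All 19 member summits were present within 200 bp in both replicates' own lists, as were 2016 of the 2051 optimal summits. Among the strongest peaks of both replicates were 11 of the 19 (57.9%), against 66.8% of the whole optimal list. The dnj-5 summit ranked 116 in replicate 1 and 123 in replicate 2, and the dnj-9 summit 406 and 437. The cct-2 summit ranked 1336 and 5014, and the cct-7 summit 296 and 2569. These last were strong in replicate 1 and weaker in replicate 2, whereas the cct-1 summit was the reverse, at 2272 and 767.

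**Figure D3:**
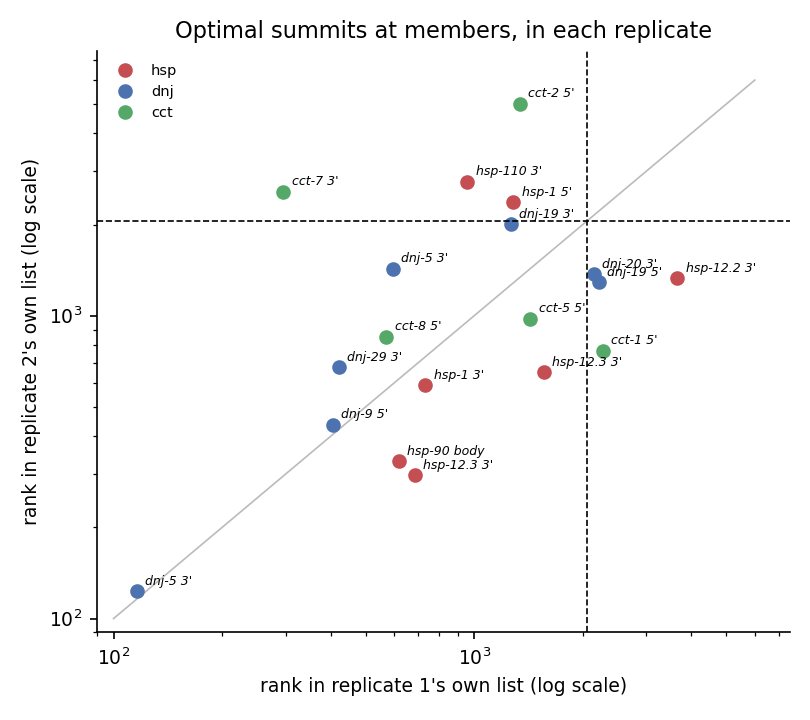
Rank of each of the 19 member summits in replicate 1's own list (horizontal) and replicate 2's own list (vertical), both on log axes, coloured by family. Dashed lines mark rank 2051, so the 11 summits in the lower left corner are among the strongest peaks of both replicates, and the grey line marks equal ranks.

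The CCT subunit genes carried 4 of the 7 optimal 5′ summits, but these lay far upstream. The cct-1 gene (subunit alpha; II 8185443 to 8187601, plus strand) had a summit 241 bp upstream of its start with a signal of 86.8. The cct-2 summit (subunit beta) lay 384 bp upstream with a signal of 61.2, rank 2032 of 2051. The cct-5 summit (subunit epsilon) lay 483 bp upstream with a signal of 82.1, and the cct-8 summit (subunit theta) 451 bp upstream with a signal of 101.4. All 4 were intergenic.

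At 3 of these 4 genes the 5′ end of a divergently transcribed neighbour was nearer to the summit than the cct start. For cct-1 it was mig-5, a Dishevelled protein of Wnt signalling, at 179 bp. For cct-5 it was F25F2.1 at 258 bp, and for cct-8 Y55F3AR.2 at 170 bp. Only the cct-2 summit had the cct start as its nearest gene end, with B0457.2 next at 806 bp. All 8 cct genes had a divergent upstream neighbour, against 45% of all protein-coding genes. It was within 1000 bp for 6 cct genes (75%), for 45.5% of hsp genes and for 44.8% of dnj genes, against 18.6% of all genes, so close divergent neighbours were common in each family. With each summit given only to the gene whose 5′ end is nearest, 1 cct gene kept a 5′ summit.

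The cct-7 gene (subunit eta) had its summit at the other end, 155 bp past the 3′ end with a signal of 93.2, in the 3′ untranslated region of the convergent gene zig-11. The cct-6 gene (subunit zeta) had no optimal summit, but the relaxed pooled list gave it 41.5 at the 5′ end and 59.2 at the 3′ end, the latter just under the optimal list. The start of alh-9 was nearer to that 5′ summit, at 6 bp. The cct-4 gene (subunit delta) had a single weak pooled entry at the 3′ end, 25.7, and cct-3 (subunit gamma) had none. In replicate 1's list cct-3 had 2 weak summits in the body, the higher of them 11.5.

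The HSP70 and HSP110 genes had summits at both ends, and at the 3′ end in more of the genes. All 6 had a 3′ summit in the relaxed pooled list (100%, interval 54.1 to 100%), against 31% of all genes. A 5′ summit was listed there for 4 (66.7%, interval 22.3 to 95.7%), against 25.5% of all genes. The hsp-1 gene (IV 17278959 to 17281330, plus strand), which encodes the constitutive cytosolic HSP70, had optimal summits at both ends. The summit 443 bp upstream had a signal of 69.5 and ranks of 1284 and 2371 in replicates 1 and 2. The summit 80 bp past the 3′ end had a signal of 103.5 and ranks of 732 and 591, and there the 3′ end of the convergent gene nra-1 was nearer, at 45 bp. For hsp-110, which encodes an HSP110 nucleotide exchange factor, the optimal summit lay 62 bp past the 3′ end with a signal of 73.8.

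By pooled signal the hsp-110 start missed the optimal list narrowly. Its 5′ summit, 176 bp upstream (III 8447085), had a signal of 60.67, rank 2057 in the pooled list, beside a lowest optimal signal of 60.76. In the replicates' own lists the 5′ summit of hsp-110 ranked 4205 in replicate 1 and 1575 in replicate 2. The heat-inducible hsp-70 had pooled signals of 59.02 at the 3′ end, 317 bp past it, and 23.1 at the 5′ end. The endoplasmic reticulum HSP70 genes, hsp-3 on X and hsp-4 on II, had 3′ signals of 53.5 and 52.4, and hsp-3 also had 32 at the 5′ end. The mitochondrial HSP70 gene hsp-6 had 29.2 at the 3′ end, and no summit in replicate 1's own list. Thus 2 of the 6, hsp-1 and hsp-110, were in the optimal list, and the others were listed under it.

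The HSP90 gene hsp-90, formerly daf-21, had the highest signal of any hsp gene, 128.5, with ranks of 618 and 331 in replicates 1 and 2. The summit (V 14685761) lay in an intron 843 bp inside the outermost annotated start, which put it in the body by the rule. It was 399 bp upstream of the other annotated hsp-90 transcript start, at 14686160. It was also 276 bp from the 5′ end of C47E8.4, a gene on the opposite strand that overlaps the outermost first part of hsp-90. Counting every annotated transcript start moved hsp-90 from the body to the 5′ end and the 5′ count from 7 to 8 members. The mitochondrial hsp-75 had only a pooled body summit, 30.6.

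The mitochondrial chaperonin gene hsp-60 had no summit by the 500 bp rule in the optimal or pooled list. An optimal summit with a signal of 103.8 lay 637 bp upstream of it, just outside the window, on the side of the divergent gene Y22D7AL.10. Leaving aside summits already counted at another place of the same gene, the next outside the window were 685 bp past the 3′ end of dnj-12, with a signal of 104.8, and 969 bp past the 3′ end of hsp-90, with 79.1. The members just inside the window were cct-5 at 483 bp, cct-8 at 451 bp and hsp-1 at 443 bp.

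Among the 13 small heat shock protein genes, 2 had an optimal summit, both at the 3′ end (15.4%, interval 1.92 to 45.4%). The shares of all genes were 6.8% at the 3′ end and 11.5% at any place, both inside this interval. The hsp-12.3 gene had signals of 127.4 at 186 bp past the 3′ end and 97.6 at 13 bp inside it. Both summits lay within 250 bp of the small nuclear RNA gene F38E11.11 (IV 9444642 to 9444763). The hsp-12.2 gene had a signal of 67.1, 210 bp inside its 3′ end in a coding exon, with the 3′ end of the overlapping convergent gene C14B9.8 nearer, at 200 bp. In the relaxed pooled list the highest 5′ signals of hsp genes with no optimal summit were 35.4 at hsp-12.1, 32 at hsp-3 and 27.1 at hsp-17.

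None of the 6 hsp-16 genes had a summit in the optimal or the pooled list. Their entire record was a single entry of 10.9 at the 3′ end of hsp-16.41 in replicate 1's list, in the bottom part of that list at rank 19687. The hsp-16 genes stand in divergent pairs on V, and Ensembl gives the names hsp-16.1 and hsp-16.48 to 2 genes each. The copies of these pairs (T27E4.8 with T27E4.2, T27E4.3 with T27E4.9) were identical over 740 and 737 compared bases of gene and upstream sequence in the reference. Reads from identical copies have no unique place, how the authors treated them is not given in the sources used here, and the effect of this on the listing was not tested. Of the 59 members, 9 had no summit in any relaxed list, and besides 5 of the hsp-16 genes these were hsp-43, dnj-8, dnj-21 and dnj-23.

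The strongest summit counted for a chaperone gene (II 6853184) lay beside a tRNA gene, past the 3′ end of the J-domain gene dnj-5. At dnj-5 (II 6853461 to 6858301, minus strand) the summits lay 277 and 77 bp past the 3′ end with signals of 184.4 and 88.1. Both were inside the convergent gene C04A2.15 and within 250 bp of a tRNA gene, C04A2.t1 in RefSeq (II 6853204 to 6853285). The dnj-9 summit lay 205 bp upstream with a signal of 126.1, and the 3′ end of T23B7.3 was slightly nearer, at 190 bp. The dnj-19 gene, a relative of human DNAJA2, had 75.5 at 376 bp upstream, where the start of the nuclear receptor gene nhr-47 was 20 bp away, and 74 at 347 bp past the 3′ end, where the 3′ end of T05C3.2 was 324 bp away.

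The dnj-20 gene, a relative of human DNAJB11 of the endoplasmic reticulum, had a signal of 69.7 at 146 bp past the 3′ end. The dnj-29 gene, the worm SEC63 of the same compartment, had 113.7 at 46 bp inside the 3′ end, opposite the 3′ end of tfg-1 at 91 bp. Of the dnj genes with no optimal summit, the highest 5′ signals in the pooled list were 58.6 at dnj-13, 48.3 at dnj-10 and 41.8 at dnj-28. The dnj-13 summit lay 255 bp upstream, with ranks of 1873 in replicate 1 and 3764 in replicate 2, and it ranked 2203 in the pooled list.

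Across the members, 5′ summits sat farther from the gene than was usual and 3′ summits nearer. All 7 of the 5′ summits were upstream, at a median of 384 bp, against a median distance of 211 bp over all 923 pairs of a gene and a 5′ summit. Within 250 bp lay 2 of the 7 (28.6%), against 58% of all pairs. A neighbour's end was nearer for 5 of the 7 (71.4%), against 33.4% of all pairs. At the 3′ end 8 of 11 summits lay past the gene, at a median distance of 146 bp against 201 bp over all pairs, and a neighbour's end was nearer for 3 (27.3%), against 40.9%. With 7 and 11 summits these shares are descriptions of these genes.

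**Figure D4:**
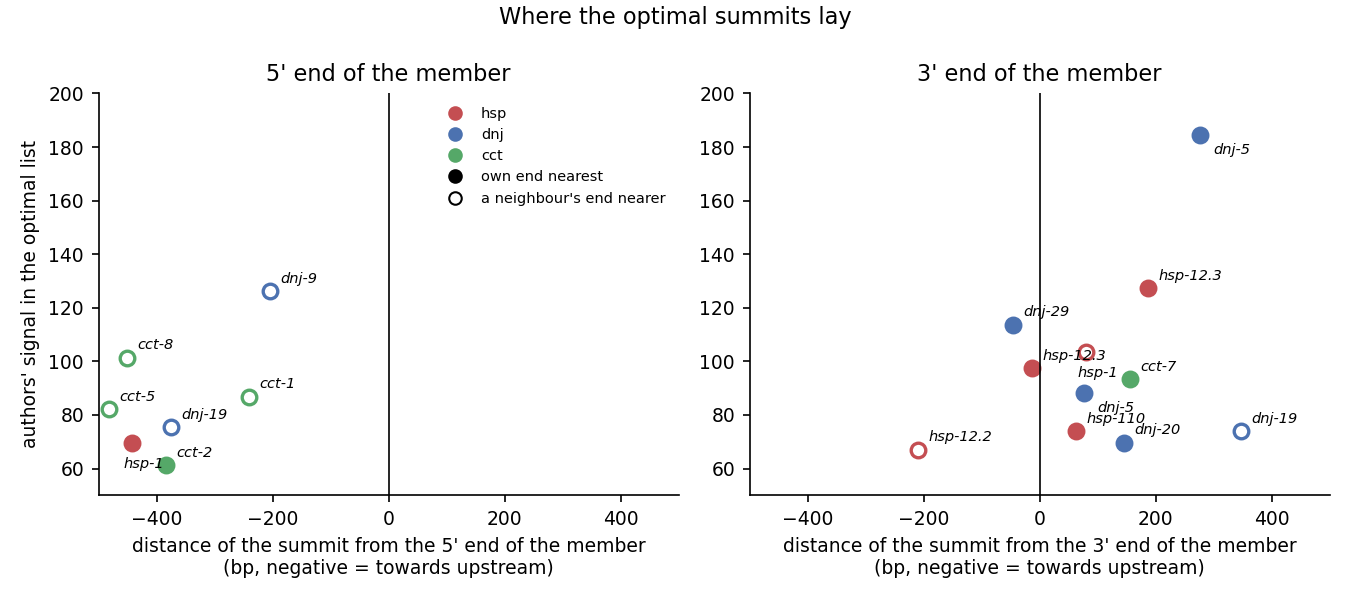
Distance of each optimal summit from the 5′ end (left) or the 3′ end (right) of its chaperone gene in bp (horizontal, negative upstream) and the authors' signal (vertical). Filled circles have the member's own end nearest and open circles a neighbour's end; the 7 summits at the left all lie upstream, and 5 of them are open.

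By chromosome, the 15 members with an optimal summit were all autosomal, 15 of 54 (27.8%, interval 16.5 to 41.6%), against 12.6% of all autosomal genes. None of the 5 X members had one, with an interval of 0 to 52.2%, and 4.28% of all X genes did.

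Extended heat shock elements were found mainly at hsp genes, and 4 of the 7 optimal 5′ summits were at cct genes. This last count depended on the setting. Among the strongest peaks of each replicate, cct and dnj genes each had 3 members with a 5′ summit. With a 1000 bp window, cct and hsp genes each had 4. The letters GAANNTTC and TTCNNGAA, which are each their own reverse complement, were searched from 250 bp before to 50 bp past the annotated start. An extended element, in which both overlap on a shared triplet, was found in 11 members (18.6%, interval 9.69 to 30.9%) and in 1.97% of all promoters. These were the 6 hsp-16 genes, hsp-1, hsp-70, hsp-90, hsp-110 and dnj-12, so 10 of 22 hsp genes (45.5%), 1 of 29 dnj genes and none of the 8 cct genes. The hsp-16 genes of a divergent pair share elements, and the hsp-16.1 and hsp-16.48 copies are identical. These shares and the interval therefore count some promoter sequence more than once. Either unit alone or together was in 28 members (47.5%) and 32.5% of all promoters, including 7 of 8 cct genes.

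Of the 11 members with an extended element, 1 had an optimal 5′ summit, hsp-1 (9.09%), and 4 had a pooled one (36.4%). The shares of all genes were 4.47% and 25.5%. The 11 include the identical hsp-16.1 and hsp-16.48 copies, whose reads have no unique place. Whether this kept them off the lists was not tested. Of the 28 members with either unit, 4 had an optimal 5′ summit (14.3%) and 13 a pooled one (46.4%). Of the 31 members with neither unit, 3 had an optimal 5′ summit (9.68%) and 15 a pooled one (48.4%). At any place 3 of the 11 with an extended element had an optimal summit (27.3%), close to the 25.4% of all members. None of these differences was tested. At hsp-1 the element was centred 138 bp upstream of the start, 305 bp from the summit. At hsp-110 the 2 elements were centred 231 and 109 bp upstream, and the pooled summit lay between them, 55 and 67 bp away. At hsp-90 the elements were centred 79 and 9 bp upstream of the outermost start, and the optimal summit was 922 and 852 bp from them. At hsp-70 the element was 67 bp upstream and the nearest pooled summit 213 bp from it.

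The elements are printed with their units in capitals, 5′ to 3′ on the strand of the gene. In those of hsp-1 and hsp-16.2 the unit GAANNTTC comes first, and in those of hsp-110 and hsp-16.48 TTCNNGAA does. The first is at a gene with a 5′ summit, which lay 305 bp from the element (hsp-1, IV:17278801-17278841, plus strand). Next is a gene whose pooled signal was just under the lowest optimal signal (hsp-110, III:8447120-8447159, minus strand). The hsp-16 genes with no 5′ summit listed are hsp-16.2 (V:1805001-1805041, minus strand) and hsp-16.48 T27E4.3 (V:9088006-9088046, plus strand). T27E4.3 has an identical copy, so its reads have no unique place.
hsp-1: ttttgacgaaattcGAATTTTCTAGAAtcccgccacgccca
hsp-110: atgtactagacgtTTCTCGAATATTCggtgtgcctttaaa
hsp-16.2: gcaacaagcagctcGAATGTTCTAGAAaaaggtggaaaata
hsp-16.48 (T27E4.3): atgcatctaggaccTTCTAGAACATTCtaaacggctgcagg

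**Figure D5:**
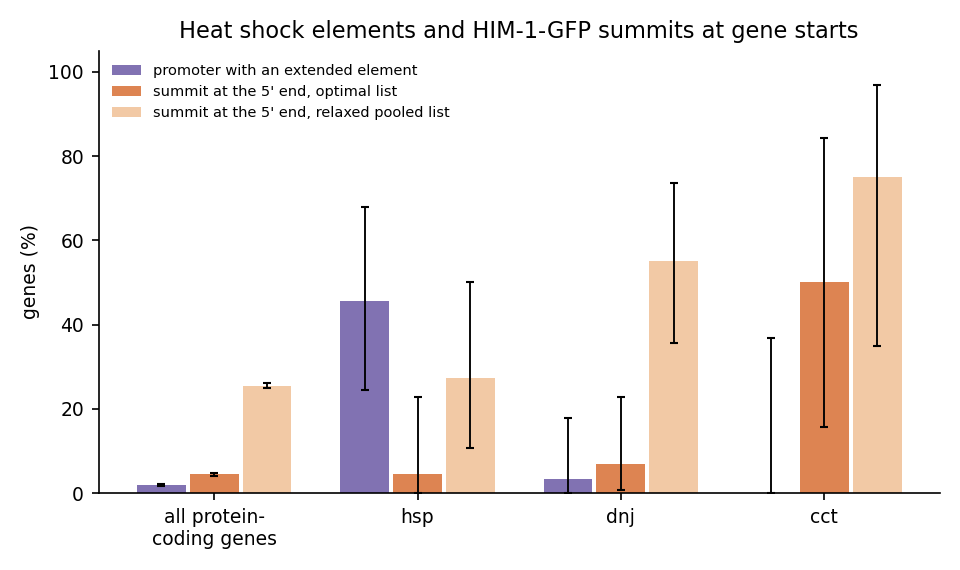
Share of genes (vertical axis, percent) whose promoter holds an extended heat shock element, and share with a HIM-1-GFP summit at the 5′ end in the optimal or the relaxed pooled list, for all protein-coding genes and each family. Error bars are 95% Clopper-Pearson intervals. The hsp genes have the highest element share (45.5%) and the lowest 5′ summit shares of the 3 families, and cct genes have no extended element. Those hsp summit shares, 4.55% (optimal) and 27.3% (pooled), are close to the 4.47% and 25.5% of all genes. The hsp genes include the identical hsp-16.1 and hsp-16.48 copies, whose reads have no unique place.

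Other chaperone and stress response genes, a list of 49 symbols of which 47 matched, had optimal 5′ summits at 7 (14.9%, interval 6.2 to 28.3%), against the 4.47% of all genes. The highest were at cdc-48.1, an AAA ATPase that extracts proteins from complexes, with 206.2 at 158 bp upstream, and at ubl-5, a ubiquitin-like protein of the mitochondrial unfolded protein response, with 179.4 at 205 bp upstream. The prefoldin genes pfd-3 and pfd-6, whose products pass unfolded actin and tubulin to CCT, had 94.9 and 84.3. The HSP70 and HSP90 cofactor genes bag-1, ahsa-1 and sti-1 had 104.9, 70.6 and 69.9. A neighbour's end was nearer at bag-1 (the 3′ end of mei-2, 146 bp) and pfd-6 (the 3′ end of F21C3.6, 60 bp). At the 3′ end 10 of the 47 had a summit (21.3%, interval 10.7 to 35.7%), against 6.8%. No summit of the optimal or pooled list was at hsf-1, which encodes the heat shock factor itself.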

How the data were processed

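Peak lists of 2 ChIP-seq libraries and of their pool were used. Per the file lists deposited with the samples, the authors supplied on ce11 an optimal list after IDR thresholding and the lists that entered IDR. Each holds the authors' signal per peak, a deposited q-value as −log10 and a summit position. Which aligner and peak caller made them is not given in the sources used here. The ce10 lists were not used. No read counts or depths were analysed, so precision is limited to counting genes.

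Genes came from Ensembl release 115 on WBcel235, the sequence of ce11; sequences were read from RefSeq's genome of that assembly. Promoter windows were taken at Ensembl gene starts, because no table of RefSeq promoters was at hand. Members, lists, roles and motifs were chosen with earlier results of these data known, so no list was tested. Text names every member with an optimal summit, the 3 others per family with the highest pooled 5′ signal (cct had 1), the main inducible and compartment hsp genes, all cct genes, nearest neighbours, and listed stress genes with an optimal 5′ summit. Sequence was read for the 8 strongest member summits that were not on chromosome I and had no annotated untranslated base within 20 bp. Of these, 5 are printed with 4 elements, all chosen after their values were seen. Assignment was tested on planted summits. Python 3.11.15, scipy 1.17.1 (intervals) and matplotlib 3.10.9 were used. Alternatives were windows of 250 and 1000 bp, stricter lists, each replicate alone, all transcript ends, nearest gene only and no summits near small RNA genes.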

Additional observations from a re-analysis of the deposited data

How the results depend on the processing

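Of 68 counts recomputed under other settings, 49 stayed within 1.5 times of the reported count. With the 1025 strongest optimal peaks, the members with a summit fell to 3 at the 5′ end, 5 at the 3′ end and 9 in all, with 3 hsp, 3 dnj and 3 cct genes; shares of all genes fell as well, to 5.76% for any place against 15.3% of members. With a window of 250 bp, 2 members had an optimal 5′ summit (3.39%, against 2.64% of all genes), 15 a pooled one (25.4% against 15.8%), and 2 cct genes had any summit. With a window of 1000 bp, or with every transcript end, no member had a body summit (0). With each summit given only to the gene with the nearest 5′ end, 3 members had a 5′ summit (5.08% against 3.65%). For any place the gene with the nearest base was taken instead, a separate rule whose counts do not add up with those by end. It gave 8 members (13.6% against 7.92% of all genes). These were 5 hsp genes (22.7%), 2 dnj genes (6.9%) and 1 cct gene (12.5%), so the dnj share was under that of all genes. Leaving out either replicate gave 1 to 2 members with a body summit and 3 to 6 cct genes with any summit. Pooled entries with q at or under 0.05 gave 10 members at the 5′ end (16.9% against 6.88%). Extending the promoter to 1000 bp gave 50 members with a heat shock element unit, beside 73.7% of all genes. Without summits near small RNA genes, 13 members remained in the optimal list, dnj-5 and hsp-12.3 being the 2 lost. The causes of these differences were not tested beyond what each setting itself removes. No paired analysis was possible because there is 1 group. Depth is unknown, so a gene without a summit was not listed, which does not show that it lacks HIM-1-GFP.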
